A study of Mus musculus with 15 samples.

Results

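The 9 genes described here are 7 ligands of the B7 family (Pdcd1lg2, Cd274, Cd80, Cd86, Icosl, Cd276 and Vtcn1) and a pair of co-stimulation genes of the tumour necrosis factor (TNF) and TNF receptor families (Tnfsf4 and Cd40). They were taken by symbol from a table of 24054 genes, and all 9 passed the low-count filter that left 15905 genes for testing. RNA had been sequenced from the lungs of 15 female wild-type Balb mice in 3 groups of 5. The animals of the saline group had a sham sensitisation and received isotype control antibody. Those of the OVA group were sensitised by intraperitoneal injection of ovalbumin (OVA, an egg white protein used as an allergen), inhaled it as an aerosol and received the same control antibody. The anti-IL-4Ra group received OVA and, at 30 mg/kg, a monoclonal antibody against mouse IL-4Ra, the receptor chain shared by IL-4 and IL-13. All treated and control animals therefore received an antibody, and no group received anti-IL-4Ra without OVA. Neither age nor dosing schedule is given in the labels.

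B7 ligands sit on dendritic cells, macrophages, B cells and some epithelial cells, and bind receptors of the CD28 family on T cells. CD80 and CD86 bind CD28, which promotes T cell activation, and CTLA-4, which restrains it. PD-L1 (Cd274) and PD-L2 (Pdcd1lg2) bind the inhibitory receptor PD-1, ICOSL binds ICOS, and OX40L (Tnfsf4) and CD40 act through the TNF-type pairs OX40L with OX40 and CD40 with CD40 ligand. In allergic airway disease these pairs act between antigen-presenting cells and type 2 helper T cells.

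Pdcd1lg2 and Cd274 are neighbours on mouse chromosome 19, with 0 genes annotated between them in RefSeq (GRCm38.p6), yet their measured responses differed. The 250 bases before each annotated start are shown, 5′ to 3′ on the plus strand, at chr19:29410669-29410918 for Pdcd1lg2 and chr19:29367188-29367437 for Cd274. Capitals mark a match to TTC and GAA with any 4 bases between them, the letters of a STAT6 site, STAT6 being the transcription factor activated by IL-4Ra.
Pdcd1lg2: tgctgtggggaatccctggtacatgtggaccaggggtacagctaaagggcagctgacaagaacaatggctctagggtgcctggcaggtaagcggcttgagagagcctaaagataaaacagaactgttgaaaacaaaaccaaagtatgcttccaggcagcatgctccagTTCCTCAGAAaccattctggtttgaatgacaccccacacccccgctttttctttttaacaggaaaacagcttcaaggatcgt
Cd274: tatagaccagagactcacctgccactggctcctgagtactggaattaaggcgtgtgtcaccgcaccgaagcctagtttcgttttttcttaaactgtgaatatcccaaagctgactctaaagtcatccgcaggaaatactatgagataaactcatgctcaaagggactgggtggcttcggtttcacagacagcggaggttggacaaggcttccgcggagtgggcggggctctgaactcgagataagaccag
The match in Pdcd1lg2, TTCCTCAGAA, occupied bases -82 to -73 from the start (chr19:29410837-29410846). The table of RefSeq promoters used here held 6 of the 9 genes (Pdcd1lg2, Cd274, Cd80, Icosl, Cd276 and Vtcn1), and the other 5 of these had 0 matches in the window from 250 bases before to 50 after the start. The letters occur on either strand in 6.95% of all 32851 such windows of 300 bases. The related site with 3 bases between TTC and GAA (8.3% of windows) and an interferon-stimulated element, GAAA at either end with 2 bases between (3.44% of windows), were found in 0 of the 6. An NF-kB core, GGG and CC with 5 bases between, was found in 4 of the 6 but also in 50.8% of all windows. The 4 include Pdcd1lg2, at bases -244 to -235, which are left in small letters above. Both strands were searched, matches of different motifs were allowed to overlap, and a match describes letters only. A single match among 6 windows is not read as a result about these genes. A role of the site in the Pdcd1lg2 response was not tested.

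Levels are given as CPM, counts relative to the library total after scaling by the trimmed mean of M values (TMM), and differences as log2 fold changes ± SE from edgeR's quasi-likelihood fit of all 15 libraries. A gene was called at a Benjamini-Hochberg adjusted p under 0.05 over all 15905 genes, and every adjusted p of a gene below is from that test. OVA against saline gave calls for 37.1% of all genes (19.3% higher and 17.8% lower), anti-IL-4Ra against OVA for 0.302% (0.138% and 0.163%), and anti-IL-4Ra against saline for 26.6% (13.9% and 12.7%). Libraries held 16774285 to 27570666 expected counts in the saline group, 10042825 to 14706131 in the OVA group and 12317805 to 16914475 in the anti-IL-4Ra group. The share on Rn45s, the ribosomal RNA precursor, was 1.19 to 2.88%, 4.31 to 12.4% and 1.65 to 12.4% in the same order. Lung epithelial markers were present in every library, with 8 markers summing to 18193 to 35095 CPM with saline, 6657 to 15672 CPM with OVA and 8769 to 19759 CPM with anti-IL-4Ra. The tissue is bulk, so a smaller number of cells of a type and less RNA per cell cannot be told apart.

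Of the 9 genes, 7 were higher with OVA than with saline (Pdcd1lg2, Tnfsf4, Cd80, Cd86, Icosl, Cd274 and Cd40), against 19.3% of all genes, and 0 were lower. Their median log2 fold change was 0.76, against 0.022 over all genes. With anti-IL-4Ra 1 of the 9, Pdcd1lg2, was lower than with OVA alone (0.163% of all genes), and the median of the 9 was -0.20 (all genes -0.0021). Against saline 5 of the 9 were still higher with anti-IL-4Ra (Pdcd1lg2, Cd274, Cd80, Cd86 and Tnfsf4), against 13.9% of all genes. The median of the 9 was then 1.00 (all genes 0.016). Groups that did not overlap and lay higher were found for 4 of the 9 with OVA (12.1% of all genes) and for 5 with anti-IL-4Ra against saline (9.53%), and lower for 1 with anti-IL-4Ra against OVA (0.66%). The OVA count was 4 without the 3 libraries rich in B cell transcripts described below (13.3% of all genes higher). It was 3 (Pdcd1lg2, Cd80 and Tnfsf4) when the Rn45s share, which did not overlap between saline and OVA libraries, entered the fit as a covariate (3.06% of all genes higher). Under that covariate the log2 fold changes of the 4 genes that lost the call were 1.25 for Cd86 and 0.65 for Cd40 in place of 1.29 and 0.69, and 0.43 for Cd274 and 0.36 for Icosl in place of 0.73 and 0.76. In the comparisons with anti-IL-4Ra the counts of 1 lower and 5 higher were the same without the 3 libraries. Of all 16116 genes tested there, 26 were lower against OVA and 2313 higher against saline. With the covariate the counts were 1 lower (38 of all 15905 genes) and 4 higher (2.02% of all genes), Cd86 being the call lost. The groups are compared in sets that share libraries (OVA in 2 comparisons, saline in 2), so the comparisons are not independent.

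**Figure D1:**
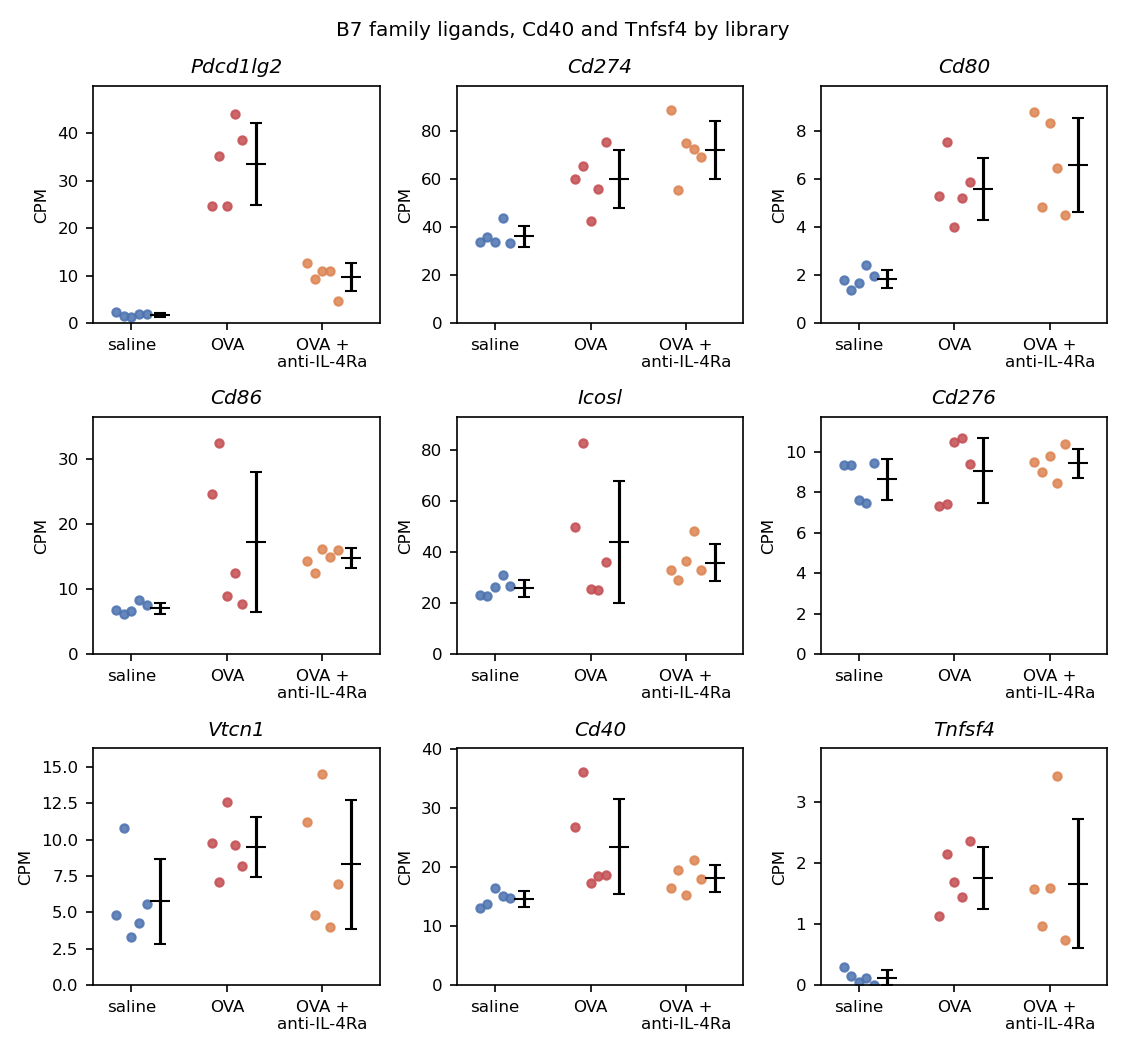
TMM-scaled CPM (vertical axes, starting at 0) of the 9 genes in each of the 15 libraries, by group; points are libraries and the bars beside them are mean ± SD (n = 5). Pdcd1lg2 falls into 3 separate bands, 1.26 to 2.26, 24.6 to 44.1 and 4.71 to 12.6 CPM, whereas for Cd86, Icosl and Cd40 the highest OVA points are the same 2 libraries.

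Pdcd1lg2, which encodes the PD-1 ligand PD-L2, showed the largest OVA response of the 9. Its level was 2.26, 1.40, 1.26, 1.96 and 1.83 CPM in saline replicates 1 to 5. It was 24.7, 35.1, 24.6, 44.1 and 38.6 CPM with OVA, and 12.6, 9.30, 11.0, 10.9 and 4.71 CPM with anti-IL-4Ra. No library of any group overlapped with another group, and every anti-IL-4Ra library lay between the saline and the OVA libraries. OVA raised Pdcd1lg2 19.1-fold (log2 fold change 4.25 ± 0.28, adjusted p = 5.1e-07). Anti-IL-4Ra left it 3.45-fold lower than OVA alone (log2 fold change -1.79 ± 0.25, 95% interval -2.31 to -1.26, adjusted p = 0.0018). It remained 5.54-fold above saline (2.47 ± 0.27, adjusted p = 7e-05). The decrease was called under all 26 alternative settings, at log2 fold changes of -1.93 to -1.61 (adjusted p up to 0.022).

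Some markers of antigen-presenting cells had group means in the same order as Pdcd1lg2, lowest with saline and highest with OVA, and others did not. The 10 dendritic cell markers summed to 193 to 262 CPM with saline, 476 to 695 CPM with OVA and 341 to 450 CPM with anti-IL-4Ra, and none was at 0 in any library. Of the 10, 4 had means in that order (Itgax, Ccr7, Cd83 and Fscn1), and the other 6, which include Flt3, Xcr1 and Clec9a, did not. Without Itgax and Cd83 the remaining 8 summed to 116 to 165, 152 to 243 and 167 to 211 CPM, with overlap between OVA and each other group. Cd83, a maturation marker, was measured at 14.4 ± 1.29, 98.4 ± 66.1 and 45.2 ± 13.3 CPM (SD, n = 5), and Itgax, which encodes CD11c, had a log2 fold change of 2.05 ± 0.17 with OVA and of -0.72 ± 0.16 with anti-IL-4Ra against OVA (adjusted p = 3.1e-06 and 0.10). Of the 10, 5 rose with OVA, 0 were called between anti-IL-4Ra and OVA, and 2 of those had an unadjusted p under 0.05 by edgeR and by DESeq2, which called 1 lower. The 7 alveolar macrophage markers summed to 398 to 1270, 1312 to 4640 and 692 to 2956 CPM, a sum carried by the chitinase-like gene Chil3 (84.6 ± 12.4, 2629 ± 1191 and 1087 ± 861 CPM, SD, n = 5; log2 fold change 4.96 with OVA, adjusted p = 1.7e-05). Without Chil3 the other 6 summed to 293 to 1188, 265 to 477 and 261 to 542 CPM, with medians of 323, 362 and 338 CPM. The saline maximum was carried by Fabp4, at 873 CPM in a single saline library against a saline median of 60.5 CPM. Of the 7, 5 (Siglec5, Marco, Pparg, Fabp4 and Car4) had their lowest mean with OVA, and 3 of these were called lower than with saline (Siglec5, Pparg and Car4, log2 fold changes of -0.76, -0.97 and -1.03). The 9 markers of monocytes and interstitial macrophages summed to 367 to 491, 509 to 708 and 628 to 849 CPM, so the last group was not the intermediate one. The part of these cells in the Pdcd1lg2 values was not tested.

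Cd274, which encodes PD-L1, was the neighbour with another pattern. It stood at 34.0, 35.7, 33.9, 44.0 and 33.3 CPM with saline, at 59.9, 65.6, 42.7, 55.9 and 75.4 CPM with OVA, and at 88.7, 55.3, 75.2, 72.6 and 69.1 CPM with anti-IL-4Ra. Saline and OVA overlapped by 1 library each (44.0 against 42.7 CPM), and all anti-IL-4Ra libraries lay above all saline libraries. It rose by 0.73 ± 0.15 on the log2 scale with OVA (1.66-fold, adjusted p = 0.0019) and was 1.00 ± 0.15 above saline with anti-IL-4Ra (1.99-fold, adjusted p = 0.00039). The difference between anti-IL-4Ra and OVA was 0.27 ± 0.15 (95% interval -0.048 to 0.59, adjusted p = 1.0), an interval that holds no decrease of the size measured for Pdcd1lg2. With the Rn45s share as a covariate the OVA difference was 0.43 (adjusted p = 0.18). Expected counts of Cd274 were more than 0.005 from a whole number in every library, so some of its reads were shared by estimate with other features. The other 8 genes had whole counts throughout.

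The ratio of Pdcd1lg2 to Cd274 counts within each library, which does not depend on library scaling, tested that contrast directly. It was computed as log2 of the counts with 0.5 added, and compared by two-sided exact permutation tests of 5 against 5 libraries, whose smallest possible p is 0.00794. The mean log2 ratio was -4.38 ± 0.35 (SD, n = 5) with saline, -0.86 ± 0.34 with OVA and -2.95 ± 0.52 with anti-IL-4Ra. Cd274 counts thus exceeded those of Pdcd1lg2 by 14.9 to 26.4 times in the saline libraries and by 1.27 to 2.42 times in the OVA libraries. The 3 groups did not overlap. The differences were 3.53 for OVA against saline, -2.09 for anti-IL-4Ra against OVA and 1.43 for anti-IL-4Ra against saline (each exact permutation p = 0.00794 and adjusted p = 0.019 over the 24 ratio tests). Against Ptprc, which encodes the leukocyte antigen CD45, the log2 ratio of Pdcd1lg2 differed by 3.45, -1.89 and 1.56 in the same order, again with an exact permutation p of 0.00794 and an adjusted p of 0.019. Of these, the difference between anti-IL-4Ra and OVA was not called without anti-IL-4Ra replicate 5 (-1.63, adjusted p = 0.0519). The Cd274 to Ptprc ratio differed by -0.079, 0.21 and 0.13 (exact permutation p = 0.889, 0.532 and 0.167).

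**Figure D2:**
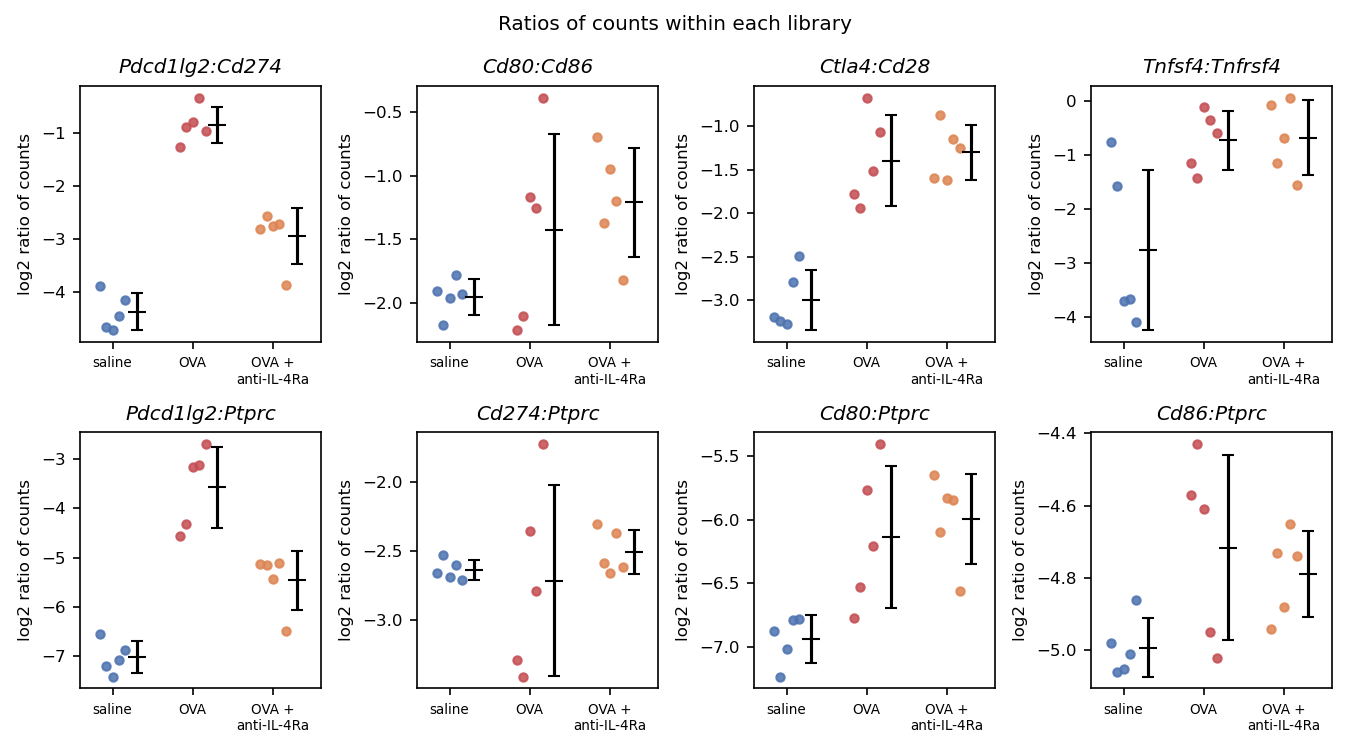
Log2 ratios of counts (vertical axes, each with its own range) within each of the 15 libraries for 8 gene pairs; points are libraries and bars are mean ± SD (n = 5 per group). The Pdcd1lg2 to Cd274 ratio forms 3 separate groups with means of -4.38, -0.86 and -2.95, and the Ctla4 to Cd28 ratio is higher in both OVA-treated groups than with saline.

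Cd80 and Cd86 encode the ligands of CD28 and CTLA-4. Cd80 was at 1.81, 1.36, 1.67, 2.40 and 1.95 CPM with saline, at 5.30, 7.52, 3.99, 5.2 and 5.85 CPM with OVA, and at 8.76, 4.82, 8.32, 6.46 and 4.49 CPM with anti-IL-4Ra. Both OVA-treated groups lay wholly above saline and overlapped each other. Cd80 rose 3.03-fold with OVA (log2 fold change 1.60 ± 0.24, adjusted p = 0.00023) and was 3.58-fold above saline with anti-IL-4Ra (1.84 ± 0.24, adjusted p = 0.00015), while anti-IL-4Ra against OVA gave 0.24 ± 0.23 (95% interval -0.25 to 0.73). Its ratio to Ptprc was also higher than with saline in both, by 0.80 and 0.94 on the log2 scale (exact permutation p = 0.00794, adjusted p = 0.019 for each). The first of these calls was lost when any 1 of the 5 saline libraries was left out (differences of 0.72 to 0.84, adjusted p from 0.0635 to 0.0794).

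Cd86 was at 6.78, 6.16, 6.56, 8.28 and 7.51 CPM with saline, at 24.6, 32.4, 8.98, 12.4 and 7.69 CPM with OVA, and at 14.3, 12.5, 16.1, 14.9 and 16 CPM with anti-IL-4Ra. The OVA libraries ranged from within the saline values to above every other library, whereas the anti-IL-4Ra libraries stayed close together and above all saline libraries. Cd86 was 2.44-fold higher with OVA (log2 fold change 1.29 ± 0.31, adjusted p = 0.0051) and 2.09-fold higher with anti-IL-4Ra (1.07 ± 0.31, adjusted p = 0.021) than with saline. Between anti-IL-4Ra and OVA the difference was -0.22 ± 0.31 (95% interval -0.88 to 0.43). The call against saline with anti-IL-4Ra was lost without saline replicate 2 (adjusted p = 0.050, log2 fold change 0.99) and with the Rn45s covariate (log2 fold change 1.03, adjusted p = 0.21). The OVA call was lost under the covariate too, at a log2 fold change of 1.25 (adjusted p = 0.12), so both differences were nearly as large as without it. The Cd80 to Cd86 ratio was 0.74 higher in log2 terms with anti-IL-4Ra than with saline (exact permutation p = 0.0159, adjusted p = 0.0346), a call that ended without saline replicate 2, 3 or 5 (adjusted p = 0.0571, 0.0571 and 0.0519). With OVA against saline it was 0.52 (exact permutation p = 0.159).

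Icosl, the ligand of the T cell receptor ICOS, had 23.0, 22.7, 26.1, 30.9 and 26.5 CPM with saline, 49.9, 82.8, 25.4, 25.0 and 36.1 CPM with OVA, and 33.0, 29.0, 36.3, 48.0 and 32.9 CPM with anti-IL-4Ra. Among the OVA libraries, 2 lay within the saline range and 2 above every anti-IL-4Ra library. It was 1.70-fold above saline with OVA (log2 fold change 0.76 ± 0.27, adjusted p = 0.037) and 0.47 ± 0.27 above it with anti-IL-4Ra (adjusted p = 0.20), and anti-IL-4Ra against OVA gave -0.29 ± 0.27 (95% interval -0.86 to 0.28). The OVA call held under 13 of 26 alternative settings and in 7 of 15 fits that left out a single library, where the log2 fold change fell to 0.40 without OVA replicate 2. It was lost without saline replicate 1, 2, 3 or 5, OVA replicate 1 or 2, or anti-IL-4Ra replicate 1 or 2 (adjusted p from 0.051 to 0.14).

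Cd40, the receptor through which helper T cells activate B cells and dendritic cells, had 13.0, 13.7, 16.4, 15 and 14.7 CPM with saline, 26.8, 36.0, 17.3, 18.4 and 18.6 CPM with OVA, and 16.5, 19.4, 15.2, 21.2 and 17.9 CPM with anti-IL-4Ra. All OVA libraries lay above all saline libraries, 3 of them between 17.3 and 18.6 CPM against a saline maximum of 16.4 CPM, and the anti-IL-4Ra libraries overlapped both. Cd40 was 1.61-fold higher with OVA (log2 fold change 0.69 ± 0.18, adjusted p = 0.0091), and the call was lost with the Rn45s covariate (0.65, adjusted p = 0.16). Anti-IL-4Ra gave -0.38 ± 0.18 against OVA (adjusted p = 0.93) and 0.31 ± 0.18 against saline (adjusted p = 0.22).

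The same 2 OVA libraries, replicates 1 and 2, were the highest of their group for Cd86, Icosl and Cd40, and they also stood apart in B cell transcripts. The 7 B cell markers (Ms4a1, Cd79a, Cd79b, Pax5, Fcer2a, Cr2 and Blk) summed to 110 to 201 CPM with saline, to 1038, 1440, 262, 301 and 304 CPM in OVA replicates 1 to 5, and to 260, 203, 471, 935 and 256 CPM with anti-IL-4Ra. None of the 7 was at 0 in any library. Anti-IL-4Ra replicate 4, at 935 CPM, was the highest of its group for Icosl, Cd40 and Tnfsf4. It was not for Cd86, at 14.9 CPM in a group that ranged from 12.5 to 16.1 CPM. OVA replicate 2 also had the highest sums of T cell and dendritic cell markers, at 330 and 695 CPM. OVA replicate 1, at 141 and 485 CPM, lay within the range of the other OVA libraries in both. Without these 3 libraries, an alternative chosen after seeing the data, the OVA differences of Cd86, Icosl and Cd40 from saline were 0.46, 0.16 and 0.31 on the log2 scale (adjusted p = 0.066, 0.45 and 0.067). Pdcd1lg2 was then at 4.35 (adjusted p = 1.1e-05), Tnfsf4 at 3.67 (0.00095), Cd80 at 1.44 (0.0036) and Cd274 at 0.68 (0.019). Leaving out the 2 highest OVA libraries of Cd86, Icosl and Cd40 lowers their differences whatever else sets those libraries apart. A link of these 3 genes to B cells was therefore not tested. Within the OVA group Ptprc was also highest in replicates 1 and 2, at 585 and 700 CPM against 220 to 387 CPM in the others. In anti-IL-4Ra replicate 4 it was at 374 CPM, the second lowest of a group that ranged from 332 to 477 CPM. The Cd86 to Ptprc ratio with OVA differed from saline by 0.28 (exact permutation p = 0.0714), which passed without OVA replicate 5 (0.35, adjusted p = 0.0317). With anti-IL-4Ra it differed from saline by 0.20 (exact permutation p = 0.0238, adjusted p = 0.0476), a call lost without saline replicate 1, 2, 3 or 4 or anti-IL-4Ra replicate 2, 4 or 5 (adjusted p from 0.0733 to 0.0816).

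**Figure D3:**
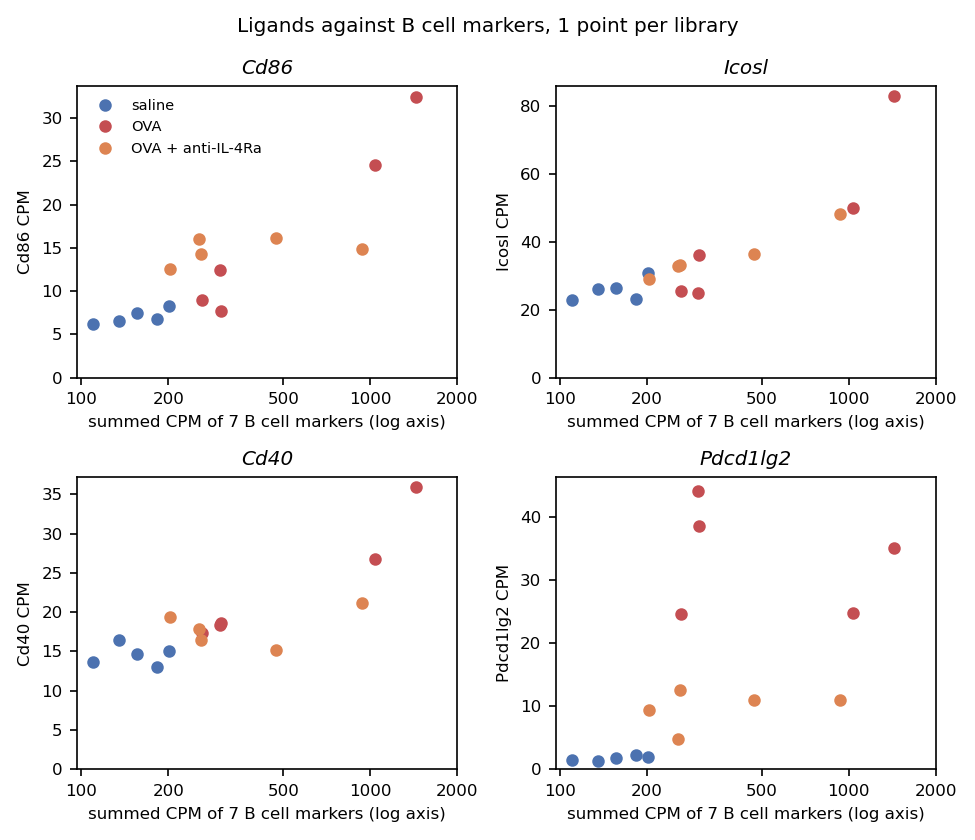
CPM of Cd86, Icosl, Cd40 and Pdcd1lg2 (vertical axes, starting at 0) against the summed CPM of 7 B cell markers (horizontal log axis), 1 point per library, coloured by group. OVA replicates 1 and 2, at 1038 and 1440 CPM of markers, are the highest OVA points for Cd86, Icosl and Cd40, while the highest Pdcd1lg2 point (44.1 CPM) has 301 CPM of markers.

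Tnfsf4, which encodes OX40L, was close to the detection limit with saline, with 8, 4, 1, 2 and 0 counts in replicates 1 to 5. The library at 0 allows up to 0.179 CPM (3 counts, counting error only). It had 1.14, 2.15, 1.69, 1.44 and 2.36 CPM with OVA (15 to 26 counts) and 1.57, 0.964, 1.60, 3.43 and 0.738 CPM with anti-IL-4Ra (13 to 51 counts). Both OVA-treated groups lay wholly above the saline libraries, of which the highest was 0.301 CPM, and they overlapped each other. The log2 fold change was 3.62 ± 0.55 with OVA (12.3-fold, adjusted p = 0.00024) and 3.54 ± 0.55 with anti-IL-4Ra against saline (11.7-fold, adjusted p = 0.00045), both resting on 15 saline counts in all. Anti-IL-4Ra against OVA gave -0.073 ± 0.44, with a 95% interval from -1.01 to 0.87 that is wide at this depth.

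Cd276 and Vtcn1 encode B7-H3 and B7-H4, ligands without an agreed receptor that are best known from tumours and epithelia. Cd276 ranged from 7.46 to 9.47 CPM with saline, from 7.35 to 10.7 CPM with OVA and from 8.48 to 10.4 CPM with anti-IL-4Ra. Its OVA difference of 0.073 ± 0.14 had a 95% interval of -0.23 to 0.38, and that between anti-IL-4Ra and OVA, 0.052 ± 0.14, one of -0.26 to 0.36. Vtcn1 ranged from 3.33 to 10.8 CPM, from 7.11 to 12.6 CPM and from 3.97 to 14.5 CPM, with the highest saline value in replicate 2. It had a log2 fold change of 0.71 ± 0.36 with OVA (95% interval -0.045 to 1.47, adjusted p = 0.13). Without saline replicate 2 this was 1.04 (adjusted p = 0.028).

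**Figure D4:**
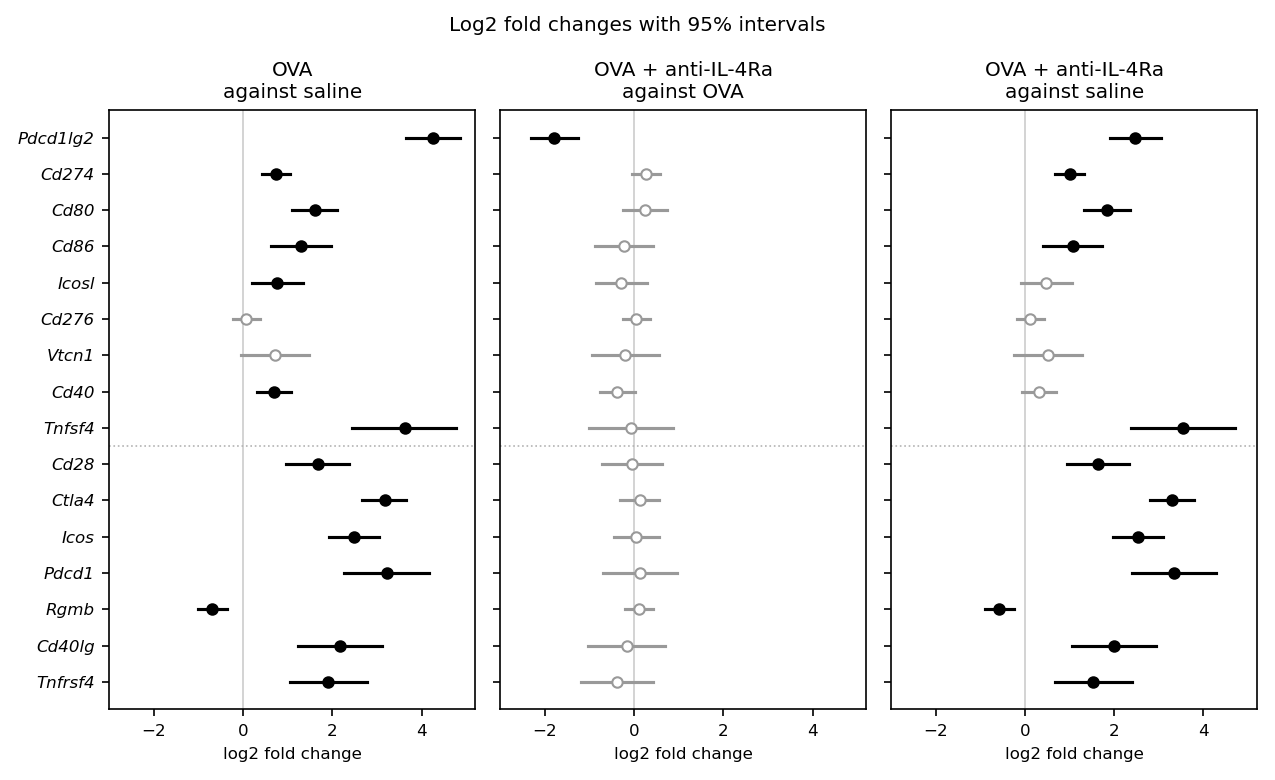
Log2 fold changes (horizontal axes) of the 9 genes, above the dotted line, and of 7 binding partners, below it, in the 3 comparisons, with 95% intervals from edgeR. Filled black points passed an adjusted p of 0.05 and open grey points did not. In the middle panel, anti-IL-4Ra against OVA, Pdcd1lg2 is the only filled point.

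The binding partners of these proteins were compared in the same way. All 7 are called receptors here for short, although Cd40lg encodes the ligand of the receptor CD40. With OVA 6 of 7 rose and 1 fell, 7 of 7 against 37.1% of all genes, and their median log2 fold change was 2.17. Pdcd1, the receptor PD-1, went from 0.968 ± 0.805 CPM (SD, n = 5) with saline to 8.90 ± 2.56 CPM with OVA and 9.66 ± 2.91 CPM with anti-IL-4Ra. Ctla4 had 0.745 ± 0.158, 6.65 ± 1.54 and 7.26 ± 1.49 CPM and Icos 2.87 ± 0.596, 16.1 ± 4.24 and 16.7 ± 6.17 CPM. The log2 fold changes with OVA were 3.22 for Pdcd1, 3.17 for Ctla4, 2.49 for Icos, 2.17 for Cd40lg (CD40 ligand), 1.91 for Tnfrsf4 (OX40) and 1.67 for Cd28. Rgmb, a co-receptor for bone morphogenetic proteins that also binds PD-L2, fell by 0.69 (39.3 ± 4.19 to 24.3 ± 5.03 CPM, adjusted p = 0.0025). Between anti-IL-4Ra and OVA, 0 of the 7 were called by edgeR (0.302% of all genes), DESeq2 or limma voom. At an unadjusted p under 0.05 each method had 0 of the 7, where edgeR had 903 of all 15905 genes. A count of 0 among 7 genes is near these shares and is not read as a result about the receptors. Their edgeR log2 differences ran from -0.38 (Tnfrsf4) to 0.12 (Ctla4 and Pdcd1). Against saline with anti-IL-4Ra, again 6 were higher and 1 lower (13.9% and 12.7% of all genes). With the Rn45s covariate 3 of 7 (Ctla4, Icos and Pdcd1) were called against saline in each comparison (4.73% of all genes with OVA and 2.35% with anti-IL-4Ra). The log2 fold changes with OVA of the other 4 were then 1.79 for Cd40lg, 1.47 for Cd28, 1.40 for Tnfrsf4 and -0.41 for Rgmb (adjusted p from 0.086 to 0.19). The 8 T cell markers found summed to 55.3 to 100 CPM with saline, 112 to 330 CPM with OVA and 122 to 299 CPM with anti-IL-4Ra, and 7 of the 8 rose with OVA; their part in the receptor values was not tested.

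Pdcd1 and its ligand Pdcd1lg2 therefore both rose with OVA, while the log2 difference between anti-IL-4Ra and OVA was 0.12 ± 0.39 for the receptor (95% interval -0.71 to 0.95) and -1.79 ± 0.25 for the ligand. Ctla4 rose more than Cd28. Their log2 ratio was -3.0 ± 0.35 (SD, n = 5) with saline, -1.40 ± 0.52 with OVA and -1.30 ± 0.32 with anti-IL-4Ra, and both OVA-treated groups differed from saline, by 1.60 and 1.70 (exact permutation p = 0.00794, adjusted p = 0.019 for each). The Tnfsf4 to Tnfrsf4 ratio was 2.03 higher with OVA (exact permutation p = 0.0317, adjusted p = 0.0544), which did not pass, and without saline replicate 1 it was 2.53 (adjusted p = 0.0238). Of the 24 ratio tests, 12 passed.

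Other genes of the pathway were counted from fixed lists, to be read against the 19.3% of all genes that were higher and the 17.8% that were lower with OVA. Among 11 tested TNF family co-stimulation genes, 4 rose with OVA and 0 fell. They were Tnfrsf9 (4-1BB; log2 fold change 3.81 ± 0.29), Tnfrsf8 (CD30; 3.41 ± 0.44), Tnfsf8 (CD30 ligand; 2.57 ± 0.31) and Tnfrsf18 (GITR; 0.98 ± 0.27). Of 14 nectin, galectin and other checkpoint genes 8 rose, among them Lag3 (2.17 ± 0.34), its ligand Fgl1 (4.25 ± 0.84) and Cd200r1 (1.43 ± 0.19). Another 4 fell, among them Lgals9 (galectin-9, -0.69 ± 0.15) and Pvrl3 (nectin-3, -1.13 ± 0.32). Fgl1 was at the detection limit with saline, with 4 counts over the 5 libraries, and had 5 to 16 counts per library with OVA. Of 18 genes of CD28 and CD40 signal transduction 12 rose, such as Lck (1.39 ± 0.31) and Zap70 (1.26 ± 0.31), kinases of T cell receptor signalling, and Nfkb2 (0.96 ± 0.18), and Pik3r1 fell (-0.45 ± 0.11). Of 4 tested butyrophilin and B7-like genes, Btnl2 rose (1.67 ± 0.47). With the Rn45s covariate the TNF list had 3 calls, the checkpoint list 1, the signalling list 0 and the butyrophilin list 0, where 4.73% of all genes were called. At an unadjusted p under 0.05 that fit had 4, 9, 2 and 1 genes of the lists in the same order. The share of all genes at that threshold was not counted for that fit.

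Between anti-IL-4Ra and OVA, 0 genes of these 4 lists were called by edgeR (0.302% of all genes), DESeq2 or limma voom. At an unadjusted p under 0.05 edgeR had 903 of all 15905 genes. Of the lists, edgeR and DESeq2 each had 1 of 11, 2 of 14, 0 of 18 and 0 of 4 in the order given. These counts are not read as a result about the lists. limma voom had 1, 1, 0 and 0. Their medians were -0.046, 0.12, -0.0013 and 0.16, against -0.0021 over all genes. Against saline with anti-IL-4Ra, 5 of 11 TNF family genes rose, 5 of 14 checkpoint genes rose and 1 fell (Pvrl3), 10 of 18 signalling genes rose and 1 fell, and 0 of 4 butyrophilin genes were called, against 13.9% of all genes higher and 12.7% lower. That Pvrl3 call held under 15 of 26 alternative settings and in 9 of 15 fits that left out a single library. With the Rn45s covariate its log2 fold change was -0.12 (adjusted p = 0.80).

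Levels of the 9 genes were ordered after division by exon length. In CPM per kilobase of exon with saline, Cd274 (9.99 ± 1.24, SD, n = 5) and Icosl (9.18 ± 1.19) came first, with overlapping ranges. Cd40 followed (4.87 ± 0.439), clear of its neighbours. Cd86 (2.78 ± 0.331), Cd276 (2.40 ± 0.282) and Vtcn1 (2.19 ± 1.12) overlapped one another, as did Pdcd1lg2 (0.888 ± 0.209) and Cd80 (0.496 ± 0.103) by their nearest libraries, and Tnfsf4 was lowest (0.0668 ± 0.0627). With OVA, Pdcd1lg2 moved from rank 7 to rank 1, at 17 ± 4.40 CPM per kilobase, and did not differ beyond the spread from Cd274 (16.5 ± 3.34) and Icosl (15.6 ± 8.53). With anti-IL-4Ra it was at rank 5 (4.95 ± 1.55), its range overlapping those of Cd86 (5.81 ± 0.573), Cd40 (6.04 ± 0.792), Cd276 (2.62 ± 0.203) and Vtcn1 (3.16 ± 1.70), and Cd274 was again first (19.9 ± 3.31). Cd80 and Tnfsf4 held ranks 8 and 9 in all 3 groups. Exon lengths came from GENCODE M21 protein-coding transcripts, which need not be the annotation used for counting.

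The tested genes whose pattern was most like that of Pdcd1lg2 were found by the root mean square difference of log2(CPM + 0.5), centred for each gene, over the 15 libraries. H2-M2, a class Ib major histocompatibility gene, was nearest at 0.342, followed by Duox1 (0.471), an oxidase of epithelia, Sox9 (0.472), a transcription factor, Gm15056 (0.485) and Ccl22 (0.529), a chemokine of dendritic cells and macrophages that binds CCR4. The median over all tested genes was 1.65. H2-M2 had means of 0.943 ± 0.301, 15 ± 4.81 and 5.34 ± 2.19 CPM (SD, n = 5) with saline, OVA and anti-IL-4Ra, with no overlap among groups. Its OVA increase was 3.99 ± 0.33 (adjusted p = 3.3e-06) and its difference between anti-IL-4Ra and OVA was -1.49 ± 0.29 (adjusted p = 0.041), a call that was lost in 9 of 15 fits without a single library (adjusted p up to 0.14). Ccl22 had 3.49 ± 1.14, 35.0 ± 14.4 and 20 ± 6.02 CPM, with -0.81 ± 0.29 for anti-IL-4Ra against OVA (adjusted p = 0.56). For the other members the nearest genes were Fyb for Cd274 (0.150), Pttg1 for Cd80 (0.182), March1 for Cd86 (0.135), Satb1 for Icosl (0.137), Entpd1 for Cd276 (0.110), Ccdc11 for Vtcn1 (0.162), Zfp318 for Cd40 (0.162) and Adam11 for Tnfsf4 (0.272). The libraries share groups and depth, so these distances are descriptions.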

How the data were processed

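Lung RNA of 15 mice was extracted with Trizol and columns and made into dUTP strand-specific libraries, per the labels' protocols, which name both depletion of ribosomal RNA and oligo-dT purification. The authors deposited a table of expected counts by symbol with a column for each animal and no normalization. Bowtie2 2.1.0 and RSEM 1.2.15 are named in the submitters' processing notes. The notes also name a human build, but the symbols are mouse (22542 current and 1372 older symbols of 24054), so no coordinates are taken from the counts. RSEM divides reads that fit several features among them by an estimate.

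Expected counts were rounded to whole numbers, filtered with edgeR's filterByExpr (15905 genes kept), scaled by TMM and fitted for all 15 libraries with glmQLFit in edgeR 4.0.16 (R 4.3.3). Tests were two-sided with Benjamini-Hochberg adjustment over all genes tested. The SE was taken from the F statistic. Ratios were compared with exact permutation tests over 252 splits in Python 3.11.15 with numpy 2.4.6. DESeq2 1.42.0 and limma 3.58.1 (voom), other scaling factors, no filter, 2-group fits, Rn45s as a covariate or left out, and fits without each library were alternatives. The pipeline was tested on simulated data.

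The members, lists and tests were chosen with earlier results of these data known. The text names the 9 members and 7 receptors, and from each other list called genes with the largest changes whose groups did not overlap (up to 3 per direction and comparison), plus the genes nearest in pattern. Btnl2, Tnfrsf18 and the named cell type markers fell outside that rule, or were named from a marker list, after their values were seen. Vsir was matched to the symbol 4632428N05Rik, Nectin2 and Nectin3 to Pvrl2 and Pvrl3, Adgre1 to Emr1 and Siglecf to Siglec5. One B cell marker of the list is not reported here and entered no sum. Hhla2 and Trac had no matched symbol, and 3 of the 7 butyrophilin and B7-like genes found and 1 of the 12 other TNF family genes did not pass the filter.

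The labels call the replicates biological, and p-values refer to variation among animals. All 30 pairs of replicates differed by more than sampling noise (chi-square per degree of freedom of 10 to 219). The floor of 3 counts was 0.109 to 0.299 CPM per library. The floors cover counting error only. The intervals of the log2 fold changes come from the quasi-likelihood fit and, like its p-values, refer to variation among animals. Promoter sequences were taken from RefSeq.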

Additional observations from a re-analysis of the deposited data

Results flagged for a closer look

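Cd274 in saline replicate 4, at 44.0 CPM, lay apart from the other saline libraries (33.3 to 35.7 CPM). It was 1 of 48 groups of 5 libraries checked with Dixon's ratio at a critical value of 0.71, a rule by which chance alone flags about 1 in 20 groups. In fits without a single library the OVA difference of Cd274 from saline ranged from 0.63 to 0.81 on the log2 scale and was called in 15 of 15.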

How the results depend on the processing

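With OVA against saline, 7 members were called, all higher (19.3% of all genes). The count was 3 with the Rn45s share as a covariate (3.06%) and 4 without the 3 libraries rich in B cell markers (13.3%). Receptors called numbered 7, and 3 with the Rn45s covariate, in OVA against saline and in anti-IL-4Ra against saline alike. That covariate took the calls over all genes from 5898 to 752 and from 4236 to 373. The Rn45s share did not overlap between saline and OVA libraries, so in that comparison the covariate and the treatment vary together. Between anti-IL-4Ra and OVA, 48 genes were called by edgeR, 128 by DESeq2, 32 with those 2 groups alone and 26 with the replicate block, and 32 to 61 without a single library.

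Replicate numbers did not pair the libraries. Same-numbered libraries of different groups correlated at -0.546 to 0.347 in their deviations from the group means (median -0.166), with 2 of 15 above 0.1. With the replicate block the OVA call of Icosl was lost (0.70, adjusted p = 0.099), and 0 of 24 ratio tests passed in place of 12 in sign-flip tests of the paired differences (lowest adjusted p = 0.115), since 5 pairs cannot give a p under 0.0625. The block changed no other call among the 9 genes and 7 receptors.

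Of 234 alternative values of the 9 genes per comparison, 213, 223 and 231 kept their direction and their side of the threshold for OVA against saline, anti-IL-4Ra against OVA and anti-IL-4Ra against saline. No called difference changed sign. Icosl with anti-IL-4Ra against saline passed when those 2 groups were fitted alone (0.47, adjusted p = 0.032). No scaling alternative moved the median of all genes by over 0.1 on the log2 scale. Depth limits Tnfsf4, Tnfrsf8 and Fgl1, whose saline libraries held 0 to 8, 2 to 7 and 0 to 2 counts.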
